A study of Homo sapiens with 8 samples.

Results

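Histone deacetylases and the corepressors that carry them were followed through an m6A map of chromosome-associated RNA. The set held 9 genes, HDAC1, HDAC2, HDAC3, HDAC4, HDAC8, HDAC9, SIRT1, NCOR1 and SIN3A. Their peaks were all those that overlapped a gene's RefSeq bounds on GRCh38 by at least 1 bp. The METTL3 knockout list gave 35 such peaks of 23937, and the wild-type list gave 34 of 29084, so that 69 of 53021 peaks are described.

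The cells were HEK293T, an established human embryonic kidney line, either METTL3 knockout or WT (the parental cells). RNA from the chromosome fraction was stripped of DNA and ribosomal RNA and split into an m6A immunoprecipitation (IP) and an input. The 4 groups, METTL3 knockout IP, METTL3 knockout input, WT IP and WT input, had 2 replicates each. The sources used here do not say how many knockout clones were used. The deposited values are 2 peak lists, 1 per genotype, without values per replicate. No spread between replicates could therefore be computed, every difference below lacks a replicate check, and no test of genotype was made.

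m6A, methylation of adenosine at its N6 position, is written on nascent RNA mainly by a complex whose catalytic subunit is METTL3, often at the A of a GGAC sequence. RNA held on chromatin includes unspliced transcripts, so peaks can lie in introns as well as exons. Histone deacetylases remove acetyl groups from lysines of histone tails, which is generally linked to repression of transcription. HDAC1, HDAC2, HDAC3 and HDAC8 are the zinc-dependent class I enzymes, HDAC4 and HDAC9 are class IIa enzymes that shuttle between nucleus and cytoplasm, and SIRT1 is an NAD-dependent deacetylase. NCOR1 is the corepressor scaffold that binds and activates HDAC3, and SIN3A is the scaffold of the complex that holds HDAC1 and HDAC2.

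Each peak carries the authors' fold, the ratio of IP to local input at its summit. IP reads at each summit were recovered from the fold and the p-value. The IP depth so recovered was 1.17 times (plus strand) and 1.20 times (minus strand) as high in the knockout as in wild type, and the input depth was 0.925 and 0.918 of wild type. Total reads per library are not in the files. METTL3 itself had 0 knockout and 2 wild-type peaks. Of 8 HEK293T marker genes, 4 held a peak in either list, and of 9 markers of liver, blood, skin and muscle cells 1 did (PTPRC, in wild type). Among all protein-coding genes, 52.2% held a peak in neither list. A peak is also not an expression level, so these counts do not identify the cells.

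Peaks in these genes were about as numerous in the knockout as in wild type. HDAC8, HDAC9 and NCOR1, the genes with most peaks, held 31 of the 35 knockout peaks and 21 of the 34 wild-type peaks. Peaks lay in both lists in 6 genes and in wild type alone in HDAC4 and SIRT1, while HDAC3 had none. The knockout list held more peaks than wild type in 4 genes (HDAC8, HDAC9, NCOR1 and SIN3A) and fewer in 4 (HDAC1, HDAC2, HDAC4 and SIRT1). In SIN3A the extra knockout peak lay on the strand opposite to the gene. Over all genes that held a wild-type peak, 37.1% lacked any in the knockout, so the 2 of 8 seen here is no higher than the background. That background is not matched for the number of wild-type peaks. The share was 34.5% of genes with exactly 2 and 11.7% of genes with exactly 4.

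**Figure D1:**
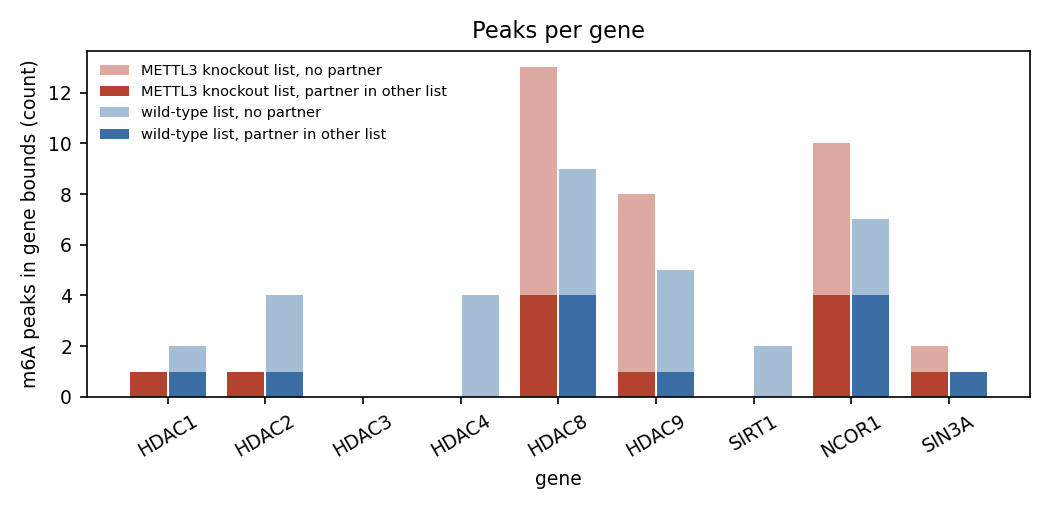
Number of m6A peaks in the bounds of each gene (y axis) in the METTL3 knockout list (red, left bars) and the wild-type list (blue, right bars); the dark part of a bar counts peaks that overlap a peak of the other list on the same strand. HDAC8 has 13 knockout and 9 wild-type peaks, while HDAC4 and SIRT1 have wild-type peaks alone.

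A partner is a same-strand peak of the other list that shares at least 1 bp. Of the knockout peaks 12 of 35 had a partner (34.3%, exact 95% interval 19.1 to 52.2), beside 24.8% of the whole knockout list. Of the wild-type peaks 12 of 34 did (35.3%, 19.7 to 53.5), beside 20.4% of the whole wild-type list. Both intervals, which cover counting error only and treat peaks as independent, hold the share of the whole list. Both shares rest on the same 12 pairs, and HDAC8 and NCOR1 held 4 pairs each. The 12 pairs lay in HDAC1, HDAC2, HDAC8, HDAC9, NCOR1 and SIN3A. Of the unpaired peaks, 9 of 23 in the knockout and 7 of 22 in wild type lay within 10 kb of a same-strand peak of the other list, close to the shares among all unpaired peaks (38.6% in the knockout and 32.8% in wild type).

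The median fold of these peaks was 7.63 in the knockout (whole list 7.06) and 7.50 in wild type (whole list 7.29). Median support was 45 IP reads in the knockout (whole list 30) and 29 in wild type (whole list 24). In the fold, 1 IP read counted 0.479 (plus strand) and 0.438 (minus strand) in the knockout and 0.607 and 0.572 in wild type, so these medians are not on the same scale. Paired peaks rested on more reads than unpaired ones, with medians of 56.5 and 33 in the knockout and of 35.5 and 18.5 in wild type, as in the whole lists (56 and 26, and 47 and 21).

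**Figure D2:**
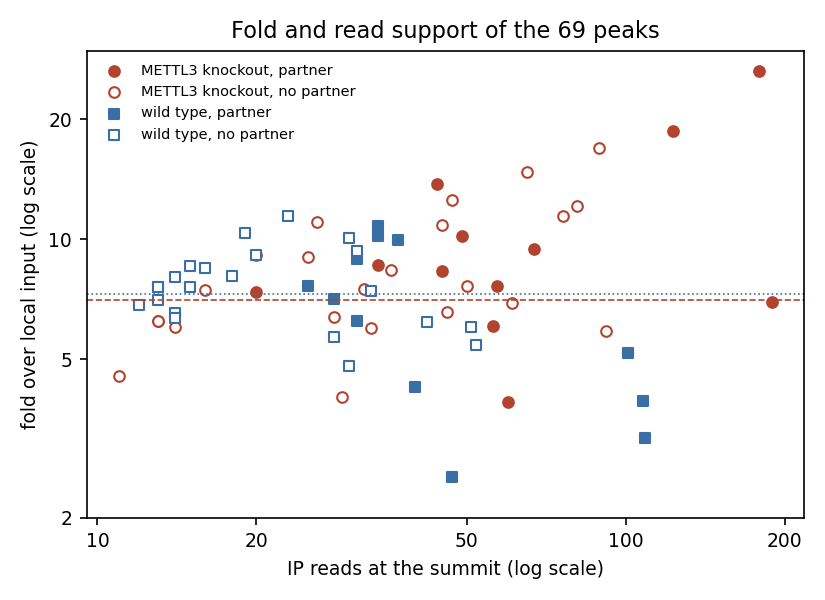
Fold over local input (y axis, log scale) against IP reads at the summit (x axis, log scale, not scaled for depth) for the 35 knockout peaks (red circles) and the 34 wild-type peaks (blue squares), filled where a partner exists; the dashed and dotted lines are the median folds of the whole knockout and wild-type lists. The highest fold, 26.5, is a knockout peak of NCOR1 on 179 reads, and the lowest, 2.54, a wild-type peak of HDAC8 on 47 reads.

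HDAC1, the class I catalytic subunit of the SIN3, NuRD and CoREST complexes, lies on the plus strand of chromosome 1 from 32292083 to 32333626. Its single knockout peak, at 32310673 to 32310924, had a fold of 18.7 on 123 IP reads and stood at the 99.1st percentile of the knockout list. The wild-type partner at 32310691 to 32310939 had a fold of 5.19 on 101 reads. The summits were 2 bp apart, 18.7 kb into the gene. A second wild-type peak, at 32292078 to 32292292, had a fold of 4.80 on 30 reads and no knockout partner. It spans the annotated start of the gene, and it is the only one of the 69 peaks that lies over a RefSeq promoter window of its own strand. In the whole lists, 0.898% of knockout and 1.25% of wild-type peaks did so. The window around this start (RefSeq, GRCh38.p14, plus strand, chr1:32291833-32292112) is printed because the wild-type peak begins in it, with the 35 printed bases under the peak in capitals.
HDAC1: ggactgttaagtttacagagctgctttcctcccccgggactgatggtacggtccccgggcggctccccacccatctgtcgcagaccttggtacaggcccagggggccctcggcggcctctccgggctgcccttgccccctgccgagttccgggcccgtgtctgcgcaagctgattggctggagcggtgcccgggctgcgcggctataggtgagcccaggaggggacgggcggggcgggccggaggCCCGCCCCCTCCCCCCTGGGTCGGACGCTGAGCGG
The sequence GGAC, the commonest core of the m6A consensus, occurs 4 times on the gene's strand of the full window of 300 bases and 1 time on the other strand. It occurs 1 time in the 55 window bases under the peak. Of all 35116 promoter windows in the table, 66.3% hold GGAC on the gene's strand and 87.4% on either strand, so a match here is a description and not a methylation site.

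HDAC2, the close paralog of HDAC1 in the same complexes, lies on the minus strand of chromosome 6 from 113933028 to 113971148. It had 1 knockout and 4 wild-type peaks, all on its own strand. The knockout peak at 113965295 to 113965516 had a fold of 9.48 on 67 reads, and its wild-type partner at 113965220 to 113965419 had 4.26 on 40 reads. Both lie about 5.8 kb from the 5′ end. The other wild-type peaks lay further into the gene. They were at 113959190 to 113959395 (fold 7.42, 33 reads), 113943410 to 113943642 (6.03, 51 reads) and 113938354 to 113938561 (9.15, 20 reads). The nearest knockout peak on the same strand was 5.90, 21.7 and 26.7 kb away from these.

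HDAC3, the class I enzyme of the NCOR1 complex, had no peak in either list within its bounds on chromosome 5 (141620881 to 141636849, minus strand). Among protein-coding genes, 52.2% had no peak in either list. The nearest knockout peak lay 11.6 kb outside the bounds, in FCHSD1. The nearest wild-type peak lay 0.727 kb beyond the 5′ end, on the opposite strand and in RELL2, with a fold of 5.89.

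HDAC8, a class I enzyme that deacetylates the cohesin subunit SMC3, held most peaks of the set. On chromosome X, from 72329516 to 72572843 on the minus strand, it had 13 knockout and 9 wild-type peaks, which is 5.34 and 3.70 per 100 kb. All 22 lay on the strand of the gene. Genes that also had 9 wild-type peaks had a median of 6 knockout peaks (5th to 95th percentile 1 to 12, 105 genes). Genes that also had 13 knockout peaks had a median of 12 wild-type peaks (6 to 21.5, 31 genes), so the count of HDAC8 was past the upper end of the first range and inside the second.

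The 3 knockout peaks of highest fold in HDAC8 had no partner. They lay at 72535397 to 72535640 (fold 12.5, 47 reads), 72410932 to 72411167 (12.2, 81 reads) and 72348738 to 72348960 (11.4, 76 reads). Of the 3 wild-type peaks of highest fold, that at 72523480 to 72523679 (9.98, 37 reads) had a partner, and those at 72409214 to 72409472 (10.1, 30 reads) and 72422286 to 72422572 (9.37, 31 reads) had none. Peaks of both lists met in a stretch of 11.7 kb, from 72399481 to 72411167, about 70% of the way from the 5′ end, with 5 knockout and 4 wild-type peaks. Within it 2 of the 4 pairs of the gene lay, and the unpaired peaks of the 2 lists stood between 0.400 and 2.96 kb from a peak of the other list.

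HDAC4, a class IIa deacetylase that represses MEF2 target genes, had 0 knockout and 4 wild-type peaks. It lies on the minus strand of chromosome 2 from 239048168 to 239401649. From the 5′ end, the wild-type peaks were at 239340979 to 239341181 (fold 6.86), 239176178 to 239176631 (5.67), 239169223 to 239169422 (7.03) and 239052849 to 239053048 (10.4). They rested on 12, 28, 13 and 19 reads, against a list median of 24. The nearest knockout peak on either strand lay 528.1 kb outside the bounds of the gene, in NDUFA10. Of 650 genes with exactly 4 wild-type peaks, 11.7% had no knockout peak. The lists do not give the level of a transcript, so an unmethylated transcript and too little RNA for a call cannot be told apart.

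HDAC9, the other class IIa enzyme of the set, is the longest gene, at 915.6 kb on the plus strand of chromosome 7 (18086825 to 19002416). It had 8 knockout and 5 wild-type peaks, all on its strand, or 0.874 and 0.546 per 100 kb. The 392 genes with 5 wild-type peaks had a median of 3 knockout peaks (5th to 95th percentile 0 to 8). The single pair was the strongest peak of both lists in the gene. The knockout peak at 18224634 to 18224867 had a fold of 13.8 on 44 reads, and the wild-type peak at 18224622 to 18224832 had 10.8 on 34 reads, with summits 1 bp apart.

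The next knockout peaks of HDAC9 were at 18322579 to 18322927 (fold 11.0, 26 reads) and 18550598 to 18550797 (9.13, 20 reads). The next wild-type peaks were at 18197377 to 18197576 (8.56, 15 reads) and 18196267 to 18196502 (8.05, 14 reads). RefSeq lists 5 starts for the gene, of which the first internal start lies 408.9 kb in. Upstream of it lay 6 knockout and 5 wild-type peaks, and downstream 2 knockout peaks and 0 wild-type peaks. A knockout peak at 18262736 to 18263165 (fold 4.55, 11 reads) and a wild-type peak at 18262210 to 18262722 (7.58, 13 reads) were 13 bp apart and count as unpaired under the overlap rule.

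SIRT1, a nuclear deacetylase of histones and of p53, had 0 knockout and 2 wild-type peaks. It lies on the plus strand of chromosome 10 from 67884656 to 67918390. The wild-type peaks were at 67888934 to 67889145 (fold 6.22, 42 reads) and 67912648 to 67912939 (5.43, 52 reads). Of 2091 genes with exactly 2 wild-type peaks, 34.5% had no knockout peak. The read support of both SIRT1 peaks was above the wild-type list median of 24, but their folds stood at the 28.9th and 19.4th percentiles of that list. Next to the gene, in HERC4, both lists held a minus-strand peak at the same place, 67925171 to 67925370 in the knockout (fold 6.64) and 67925169 to 67925368 in wild type (7.60).

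**Figure D3:**
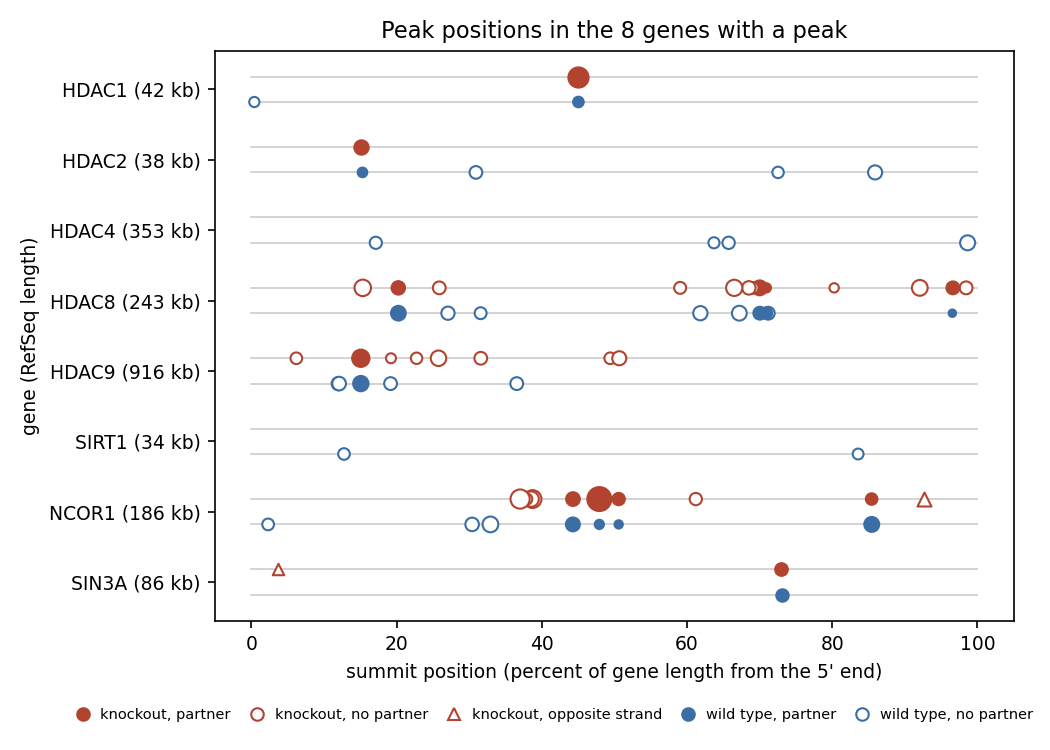
Summit positions along the 8 genes with a peak, in percent of gene length from the 5′ end (x axis); for each gene the upper line is the knockout list (red) and the lower line the wild-type list (blue), the area of a mark grows with the fold, filled marks have a partner and triangles lie on the strand opposite to the gene. The 4 knockout peaks of NCOR1 near 37 to 39% have no wild-type peak below them, and HDAC9 has no peak beyond 50.7% of its length.

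NCOR1 lies on the minus strand of chromosome 17 from 16029157 to 16215534 and had 10 knockout and 7 wild-type peaks. The 192 genes with 7 wild-type peaks had a median of 5 knockout peaks (5th to 95th percentile 1 to 9), and the 50 genes with 10 knockout peaks had a median of 9.5 wild-type peaks (2.45 to 13). These ranges count peaks on either strand. With 10 knockout peaks NCOR1 lay just past the upper end of the first range, and with 7 wild-type peaks inside the second. On its own strand it had 9 knockout peaks. The knockout peaks of highest fold were at 16126115 to 16126378 (26.5, 179 reads), 16146389 to 16146666 (16.9, 89 reads) and 16143282 to 16143524 (14.7, 65 reads). The first stood at the 99.8th percentile of its list for both fold and −log10 q. The wild-type peaks of highest fold were at 16154018 to 16154346 (11.4, 23 reads), 16056137 to 16056340 (10.2, 34 reads) and 16132892 to 16133125 (8.92, 31 reads). The first of these had no partner.

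The knockout list had 4 NCOR1 peaks within 3.385 kb, from 16143282 to 16146666, where wild type had 0. They include the peaks of folds 16.9 and 14.7 just given, and the others had folds of 10.9 (45 reads) and 5.90 (92 reads). The nearest wild-type peaks on the strand were 7.35 to 10.2 kb away. Another knockout peak, at 16042888 to 16043087 (fold 9.02, 25 reads), lay on the plus strand, opposite to NCOR1 and also within the bounds of TTC19.

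SIN3A, on the minus strand of chromosome 15 from 75369379 to 75455815, had 2 knockout peaks and 1 wild-type peak. The knockout peak at 75392451 to 75392938 (fold 7.39, 20 reads) overlapped the wild-type peak at 75392644 to 75392846 (7.09, 28 reads). The other knockout peak, at 75452559 to 75452788 (fold 6.02, 14 reads), lay on the plus strand, 3.20 kb inside the 5′ end. Over the 9 genes, 2 knockout and 0 wild-type peaks lay opposite to their gene, beside 8.63% of knockout and 8.01% of wild-type peaks in all protein-coding gene bounds whose strand is known. On the gene's own strand SIN3A thus had 1 peak in each list.

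At the 12 pairs the fold could be compared with its parts. In the knockout the fold was at least 2-fold higher than in wild type in 5 pairs and at least 2-fold lower in 0, beside 10.8% and 10.0% of all 5996 pairs of the lists. The 5 pairs lay in NCOR1 (26.5 in the knockout against 3.92 in wild type, and 6.98 against 3.17), HDAC1 (18.7 against 5.19), HDAC8 (7.63 against 2.54) and HDAC2 (9.48 against 4.26). The HDAC8 pair is weak, with summits 186 bp apart. Its wild-type peak stood at the 0.67th percentile of its list for fold and had a −log10 q of 2.54. That pair does not count when a −log10 q of 3 or summits within 100 bp are required. The median log2 difference, knockout minus wild type, was 0.38 over the 12 pairs and 0.01 over all pairs. It was 0.78 when a pair had to overlap reciprocally by 50%. The folds of the other 7 pairs were within 2-fold of each other.

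The IP reads differed less. After scaling for IP depth, 0 of 12 pairs had 2-fold more or fewer IP reads in the knockout, beside 4.39% and 4.07% of all pairs. The scaled IP reads were higher in the knockout in 10 pairs and lower in 2, beside 2932 and 3062 of all 5994 pairs. Their median log2 difference, added after seeing the data, was 0.30 over the 12 pairs and −0.016 over all pairs. The knockout over wild-type ratio ran between 0.595 (SIN3A) and 1.63 (HDAC8). Its exact 95% interval, which covers counting error only, lay above 1 in 3 pairs and held 1 in 9. The 3 were the NCOR1 pairs with most reads, at 1.45 (1.14 to 1.85) and 1.38 (1.08 to 1.77), and an HDAC8 pair at 1.61 (1.03 to 2.57). In HDAC1 the ratio was 1.04 (0.793 to 1.37).

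The local input, to which the IP is compared, differed more. It is given as the input reads expected at the summit, which is not a count of reads there. How many input reads each value rested on is not known. At the NCOR1 pair of fold 26.5 in the knockout it was 2.0 in the knockout and 15.0 in wild type, a depth-scaled ratio of 0.145. At the HDAC1 pair it was 2.20 in the knockout and 11.0 in wild type, and at the HDAC8 pair near the 3′ end 2.40 in the knockout and 10.0 in wild type. The summits of that HDAC8 pair were 186 bp apart, so its values belong to different places. Local input was at least 2-fold lower in the knockout in 4 of 12 pairs and at least 2-fold higher in 2, beside 22.5% and 19.4% of all pairs. The 2 with more input in the knockout, in HDAC8 and NCOR1, were those whose fold was lowest relative to wild type (3.90 in the knockout against 6.24 in wild type, and 6.08 against 10.2). Local input and IP reads were both recovered from the fold and the p-value, so this match is not a separate observation. Whether the input differences reflect more RNA at these places or the sampling of reads was not tested.

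**Figure D4:**
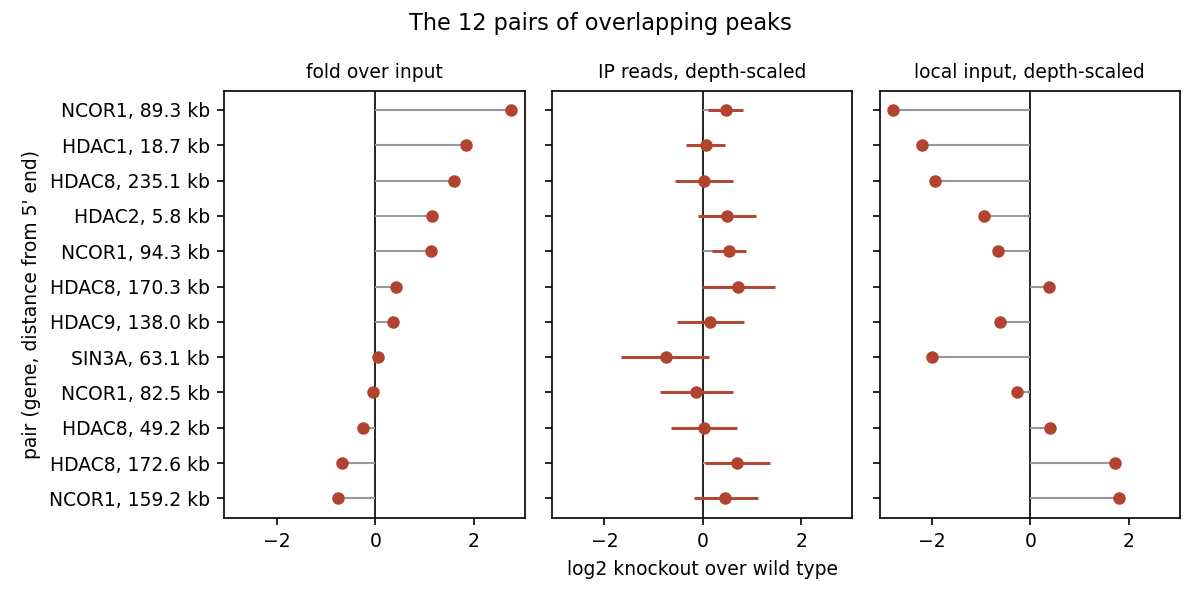
Log2 of knockout over wild type (x axis) at the 12 pairs of overlapping peaks, named by gene and distance of the knockout summit from the 5′ end, for the fold over input (left), IP reads scaled for depth (middle, with exact 95% counting intervals) and local input scaled for depth (right). The folds range from −0.75 to 2.75, the IP reads from −0.75 to 0.71 and the local input from −2.78 to 1.80.

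Among 50 related genes (other deacetylases, sirtuins and subunits of the SIN3, NuRD, CoREST, NCOR1 and CtBP complexes), 24 had peaks in both lists, 7 in the knockout alone, 11 in wild type alone and 8 in neither, beside 52.2% of all protein-coding genes with a peak in neither. They held 69 knockout and 87 wild-type peaks. Of these, 21 in each list had a partner, beside 24.8% of all knockout and 20.4% of all wild-type peaks. ARID4B, a SIN3 complex subunit, had most, with 7 knockout and 8 wild-type peaks, 5 of them paired in each list. MTA3 of the NuRD complex and PHF21A of the CoREST complex had 5 knockout and 8 wild-type peaks each. ARID4A, a paralog of ARID4B, had 5 knockout and 5 wild-type peaks, and TBL1X, an NCOR1 complex subunit, had 2 knockout and 7 wild-type peaks.

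Peaks in a single list were few per gene. MIER3, a cofactor of HDAC1 and HDAC2, had 0 knockout and 2 wild-type peaks, and SIRT5, a mitochondrial sirtuin, had 2 knockout and 0 wild-type peaks. BRMS1, a SIN3 complex subunit, and HDAC11, the class IV enzyme, had 1 knockout peak and 0 wild-type peaks each, and DNTTIP1, of the mitotic deacetylase complex, and HDAC7, a class IIa enzyme, had 0 knockout peaks and 1 wild-type peak each. Of the related genes, 35 held a wild-type peak and 11 of these lacked a knockout peak, beside 37.1% of all such genes. A knockout peak was held by 31, of which 7 lacked a wild-type peak, beside 27.6% of all genes that held one in the knockout.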

How the data were processed

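Per the submitters' processing notes, the tools were MACS2 2.2.7.1, HISAT2 2.2.1 and SAMtools 1.15.1 on hg38. Their settings, and whether replicates were pooled before calling, are not given in the sources used here. The deposited fold column is the linear IP to local input ratio, the deposited −log10 columns hold −log10 p-value and −log10 q-value, and the deposited score column, a display value, was not used. The 9 genes, the related genes and the markers were chosen with earlier results of these data known.

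Genes came from the RefSeq table of GRCh38.p14, and strands and promoter windows (250 bases before to 50 after a start) from RefSeq. Exons were not used here. Starts are 1-based. MACS2's fold was taken as (scaled IP pileup + 1) / (local input + 1) and its p as a Poisson tail, and reads were solved for each peak. The tolerance was 0.002 in −log10 p, and wider in proportion for peaks of large −log10 p. The solving was tested on data simulated with the same formulas, which cannot check the formulas themselves. All 9 genes are described, with up to 3 peaks of highest fold per list where a gene held over 10. Of the related genes, the 6 with most peaks over both lists, except a gene that is not reported here, and 6 of the 18 with peaks in a single list (most peaks first, ties in alphabetical order) are named. Shares have exact 95% intervals (Clopper-Pearson). Python 3.11.15, numpy 2.4.6, pandas 2.3.3, SciPy 1.17.1 and matplotlib 3.10.9 were used.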

Additional observations from a re-analysis of the deposited data

How the results depend on the processing

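No paired analysis was possible because neither list carries values per replicate, and no replicate could be left out for the same reason. The totals and shares were recomputed in 24 alternatives (a −log10 q of 3 or more, equal numbers of strongest peaks, peaks in exactly 1 gene, peaks on the gene strand, and other overlap rules), and each stayed within 1.5 times the total or inside the interval of the share. Totals ran from 33 to 35 in the knockout and from 31 to 34 in wild type. The partner share ran from 22.9% (reciprocal overlap of 50%) to 37.1% (peaks up to 100 bp apart, added after seeing the data) in the knockout and from 23.5% to 38.2% in wild type under the same rules. Whole-list shares were computed with the 1 bp same-strand rule alone, so they are no comparison for the other rules. The median log2 fold difference at pairs, 0.38, was 0.35 with the stricter q or with summits within 100 bp, and 0.78 with reciprocal overlap of 50%, where fewer pairs remain. The median log2 difference in IP level alone, added after seeing the data, was 0.30. Of 72 recomputed gene counts 9 changed, each by 1 peak. Some of the 72 could not change. Taking equal numbers of strongest peaks kept the whole knockout list, so the knockout total and gene counts were fixed there. The settings for gene counts only removed peaks, so a count of 0 stayed 0. SIN3A in the knockout, with 1 peak on the gene strand, was the only count to change by more than 1.5 times. Shares of 34 or 35 peaks leave intervals over 30 points wide, and the depth of each library is unknown.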
